A study of Homo sapiens with 6 samples.

Results

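The EGF receptor family was followed here through 10 named genes: the receptors EGFR, ERBB2 and ERBB3, the ligands AREG, EREG, TGFA, HBEGF, BTC and EPGN, and the receptor inhibitor ERRFI1. They were chosen by name, and every array probe that the platform annotation assigns to them was read. Of the 10 genes, 9 had such probes, 17 in all, and AREG was not analysed here. Of the 9 genes, 8 were tested among 11586 genes in all; the exception was EPGN, whose probe was detected on 0 arrays. The RNA came from 2 stable derivatives of HuCCT1, an established human cell line of bile duct cancer. Mock cells held the vector alone. The second derivative was labelled as overexpressing WTAP, a protein that belongs to the RNA methyltransferase complex placing N6-methyladenosine in transcripts. Each group had 3 arrays, numbered 4, 5 and 6 in both groups. Neither separate cultures nor the number of clones behind a derivative is stated in the labels, so p-values measure the spread between these arrays, which may be technical.

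Ligands of this family are made as membrane-anchored precursors, which metalloproteases cut to release the active growth factor. A ligand brings 2 receptors together, and the paired kinases then start the RAS, RAF and ERK cascade and PI3 kinase signalling. ERBB2 has no known soluble ligand and ERBB3 has little kinase activity, so each works mainly through a partner. EGF receptor signalling drives growth of the bile duct epithelium, and ERK in turn induces ligands, phosphatases and other feedback genes.

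All 6 arrays had similar median bead signals (191.4 to 202.8), and 15071 to 16307 probes were detected on each. Of 8 cholangiocyte and epithelial markers with a probe, 8 were detected on every array, as were 0 of 5 endothelial, 1 of 5 fibroblast (LUM) and 2 of 4 leukocyte markers (CD68 and CD14, while PTPRC and CD3E were not). LUM was higher on the arrays labelled WTAP without overlap of the groups, by 1.03 on the log2 scale, and missed the threshold (limma adjusted p = 0.0632). The summed signal of the 5 fibroblast markers was 382 to 435 on mock arrays and 404 to 616 on arrays labelled WTAP. Hepatocyte markers moved with the groups as well: ALB and CPS1 were detected throughout and APOA2, TTR and CYP3A4 were not, and the summed normalized signal of the 5 markers was 819 to 987 on mock arrays and 574 to 725 on arrays labelled WTAP. The part of these markers in the results was not tested. WTAP itself differed by a log2 fold change of 0.06 (95% interval -0.17 to 0.30, limma adjusted p = 0.703), so the direction of every change rests on the labels.

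The family split by member. EREG, HBEGF, ERRFI1 and EGFR were lower in the cells labelled WTAP, ERBB2 and ERBB3 were higher, and TGFA and BTC did not pass the test (limma on log2 values, Benjamini-Hochberg adjusted p under 0.05 over all genes). That is 2 members higher and 4 lower of 8 tested, against 20.4% of all genes changed, 10.5% higher and 9.91% lower. For the same 6 members every mock array lay on the same side of every WTAP array, as in 39.7% of all genes. Leaving out 1 array gave 2 to 6 changed members: 2 without mock array 4 or WTAP array 5, and 3 without mock array 5 or WTAP array 4. The median log2 fold change of the 8 members was -0.36, and that of all genes was 0.0030. In such bulk RNA, fewer cells expressing a gene and less of its RNA per cell cannot be told apart. All values below are normalized log2 signals unless bead signals are named; they hold a small added offset, so fold changes of dim genes are understated.

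**Figure D1:**
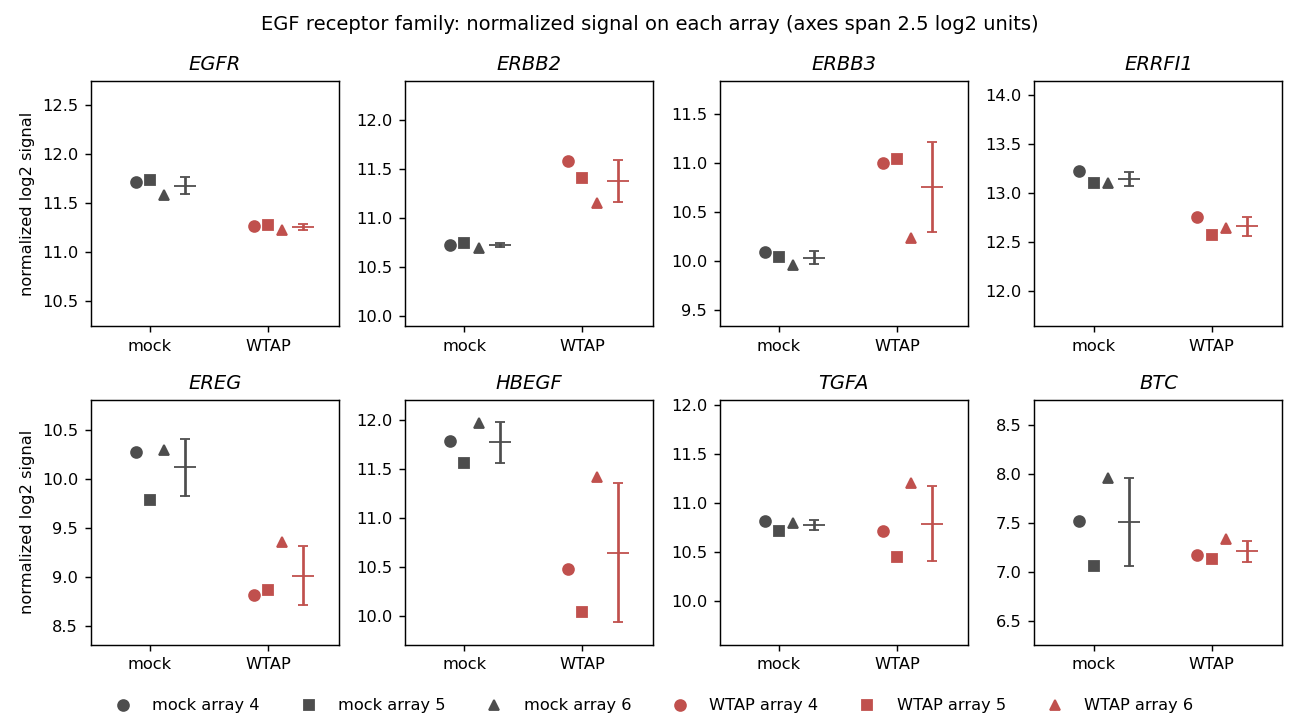
Normalized log2 signal (vertical axes, all of equal span) of the 8 tested genes on the 3 mock and 3 WTAP arrays; symbols mark the array number, and the horizontal mark with its bar is the mean ± SD. EGFR, ERRFI1, EREG and HBEGF lie lower on all WTAP arrays, ERBB2 and ERBB3 higher, and in TGFA and BTC the groups overlap.

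EGFR, the receptor kinase that binds EGF and most ligands of the list, read 11.72, 11.74 and 11.58 on mock arrays 4, 5 and 6. It read 11.27, 11.28 and 11.23 on the arrays labelled WTAP. The WTAP arrays lay close together and all below the mock arrays. EGFR was 1.34-fold lower (95% interval 1.14 to 1.58), or -0.42 on the log2 scale (standard error 0.10, limma adjusted p = 0.0238). This call was lost after subtraction of neighbouring genes (limma adjusted p = 0.0597), without mock array 4 or 5 (0.0705 and 0.0819) and without WTAP array 4 or 5 (0.0678 and 0.0577); over 16 alternatives the adjusted p ranged from 0.00465 to 0.668.

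The highest of those values came from averaging the detected EGFR probes, which moved apart. The probe reported above is annotated to the transcript of the full-length receptor. The other detected probe, annotated to a transcript known to encode a shorter EGFR protein without the kinase, read 8.84, 8.59 and 8.76 on mock arrays and 9.02, 9.02 and 9.01 on WTAP arrays. Its log2 fold change was 0.29 with a 95% interval of 0.03 to 0.54, and it missed the threshold over all detected probes (limma adjusted p = 0.114), of which 19.1% passed. The difference between the 2 probes within an array fell by 0.71 on the log2 scale, without overlap of the groups. An exact two-sided permutation test over the arrays gave p = 0.1, the smallest that 3 against 3 arrays allow, and 0.2 after adjustment over 4 pairs of probes. The averaged probes gave a log2 fold change of -0.07. Probe positions within the transcripts were not used here, and the 2 further EGFR probes were detected on 0 arrays.

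ERBB2, the partner receptor known from amplified breast and biliary cancers, read 10.73, 10.74 and 10.70 on mock arrays. On WTAP arrays 4, 5 and 6 it read 11.58, 11.41 and 11.15. The mock arrays agreed within 0.042, whereas the WTAP arrays spread over 0.43, with array 6 lowest. ERBB2 rose 1.58-fold (95% interval 1.28 to 1.94), or 0.66 on the log2 scale (standard error 0.13, limma adjusted p = 0.0106). The rise passed under each of 16 alternatives (limma adjusted p 0.000664 to 0.0416). Its 2 other probes were detected on 0 arrays.

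ERBB3, a neuregulin receptor that signals to PI3 kinase through its partners, read 10.09, 10.04 and 9.96 on mock arrays. It read 10.99 and 11.04 on WTAP arrays 4 and 5 but 10.23 on array 6. Array 6 thus lay near the mock arrays, while still above all of them. ERBB3 rose 1.65-fold (95% interval 1.18 to 2.30), or 0.72 on the log2 scale (standard error 0.21, limma adjusted p = 0.0441). This call was lost without any of mock arrays 4, 5 and 6 (limma adjusted p = 0.0871, 0.101 and 0.112), without either of WTAP arrays 4 and 5 (0.136 and 0.122), when dim probes were kept (0.0716) and with the mean of the ERBB3 probes (0.117); over 16 alternatives it ranged from 0.00225, without WTAP array 6, to 0.136. The probe tested is annotated to the full-length transcript. The other 2 detected probes, both annotated to a short secreted form, had log2 fold changes of 0.09 (95% interval -0.18 to 0.37) and -0.0014 (-0.52 to 0.52). Their mock means were 8.22 and 6.51, against 10.03 for the tested probe. The dimmer of the 2 lay near the lowest detected values of the arrays (5.82 to 6.06), where changes are poorly read. The probe difference within arrays rose by 0.63 against the brighter of these 2 probes, again with an exact p of 0.1 and no overlap of the groups. Against the dimmer probe it rose by 0.72, with overlapping groups (exact two-sided permutation p = 0.3).

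**Figure D2:**
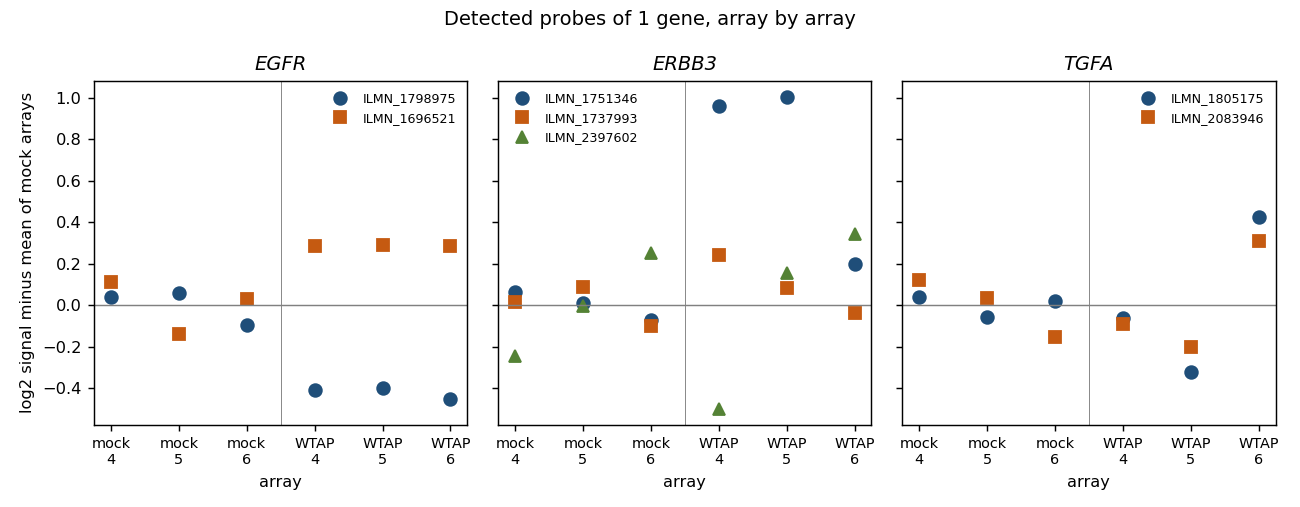
Log2 signal minus the mean of the mock arrays (vertical axis) for each detected probe of EGFR, ERBB3 and TGFA on the 6 arrays (horizontal axis); symbols are probes. The EGFR probes part in opposite directions on all WTAP arrays, and the TGFA probes move together. The rise of ERBB3 stands in the brightest of 3 probes and mainly on WTAP arrays 4 and 5. The dimmest ERBB3 probe lies near the lowest detected values.

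HBEGF, a ligand of EGFR that also binds heparan sulfate, had the largest change of the 8 tested members. Its bead signal before normalization was 3784, 3287 and 4263 on mock arrays and 1557, 1147 and 2784 on WTAP arrays. The normalized values were 11.79, 11.56 and 11.98 against 10.48, 10.04 and 11.43. All WTAP arrays were lower, and array 6 was closest to the mock arrays. HBEGF fell by 1.13 on the log2 scale, with a standard error of 0.31, or 2.18-fold (95% interval 1.33 to 3.60, limma adjusted p = 0.0386). The fall by array number was uneven: the WTAP array minus the mock array was -1.31 for number 4, -1.52 for number 5 and -0.55 for number 6. Without WTAP array 6 HBEGF fell by 1.52 (limma adjusted p = 0.00258). The call was lost without mock array 4, 5 or 6 (limma adjusted p = 0.0900, 0.0648 and 0.109), without either of WTAP arrays 4 and 5 (0.114 and 0.0880), when dim probes were kept (0.0653) and with a trended and robust variance (0.0856), and 0.114 was the highest of 16 alternatives. With the array number as a replicate block it passed (limma adjusted p = 0.0148).

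EREG, epiregulin, a ligand of EGFR and ERBB4, read 10.27, 9.78 and 10.29 on mock arrays and 8.81, 8.87 and 9.36 on WTAP arrays. The lowest mock array lay above the highest WTAP array by less than the range within either group. EREG fell by 1.10 on the log2 scale, with a standard error of 0.19, or 2.15-fold (95% interval 1.58 to 2.93, limma adjusted p = 0.00694). It had the smallest adjusted p of the 8 tested members and passed under each of 16 alternatives (limma adjusted p 0.000389 to 0.0357).

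TGFA, transforming growth factor alpha, read 10.82, 10.72 and 10.80 on mock arrays. On WTAP arrays 4, 5 and 6 it read 10.72, 10.46 and 11.21, from below all mock arrays to above all of them. Its log2 fold change was 0.01 (limma adjusted p = 0.975), and the 95% interval of the ratio of WTAP to mock was 0.754 to 1.35. The other TGFA probe gave 0.0045 and spread over the WTAP arrays in the same way (10.68, 10.56 and 11.08). TGFA thus differed between single WTAP arrays by more than the groups differed.

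BTC, betacellulin, which binds EGFR and ERBB4, was dimmer and read 7.51, 7.05 and 7.95 on mock arrays against 7.17, 7.12 and 7.33 on WTAP arrays. The groups overlapped, and mock array 5 was the lowest of all. The log2 fold change was -0.30 (limma adjusted p = 0.358), with a 95% interval of the ratio from 0.581 to 1.14. EPGN, epigen, had bead signals of 134.7 to 172.4, not above the negative controls on any array, and its level in either group was not detectable.

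ERRFI1 encodes MIG6, a cytosolic protein that binds the EGF receptor kinase, blocks it and is itself induced by ERK. It read 13.22, 13.10 and 13.10 on mock arrays and 12.75, 12.57 and 12.64 on WTAP arrays. The groups were clearly apart and each was tight. ERRFI1 fell by 0.48 on the log2 scale, with a standard error of 0.11, or 1.40-fold (95% interval 1.18 to 1.66, limma adjusted p = 0.0166). The falls by array number were even, at -0.46, -0.53 and -0.46. The call was lost without mock array 4 (limma adjusted p = 0.0559) or WTAP array 5 (0.0564, the highest of 16 alternatives, of which the lowest was 0.00109).

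The 250 bases before the start site are shown for 4 changed members, EREG, HBEGF and ERRFI1, which fell, and ERBB2, which rose, each with 1 start site in the table used, to set their sequence features side by side (RefSeq, GRCh38.p14, each 5′ to 3′ on the strand of the gene, ending at the base before the start site). Capitals mark matches on either strand to 5 motifs: AP-1 (TGANTCA), CRE (TGACGTCA), ETS (CCGGAAGT), the TATA box (TATAAA) and the GC box (GGGCGG), of which GC boxes can overlap each other. The windows are chr4:74364895-74365144, plus strand, for EREG, chr5:140346604-140346853, minus strand, for HBEGF, chr1:8026310-8026559, minus strand, for ERRFI1, and chr17:39687844-39688093, plus strand, for ERBB2.
EREG: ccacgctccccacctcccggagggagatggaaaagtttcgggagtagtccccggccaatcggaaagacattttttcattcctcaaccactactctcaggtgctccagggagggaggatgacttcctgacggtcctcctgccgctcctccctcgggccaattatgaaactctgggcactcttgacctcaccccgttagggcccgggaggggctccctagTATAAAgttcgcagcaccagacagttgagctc
HBEGF: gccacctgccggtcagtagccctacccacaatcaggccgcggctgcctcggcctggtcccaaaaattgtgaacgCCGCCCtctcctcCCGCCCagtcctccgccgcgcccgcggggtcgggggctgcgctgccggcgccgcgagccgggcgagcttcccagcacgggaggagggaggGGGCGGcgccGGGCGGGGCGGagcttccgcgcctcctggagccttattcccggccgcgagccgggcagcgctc
ERRFI1: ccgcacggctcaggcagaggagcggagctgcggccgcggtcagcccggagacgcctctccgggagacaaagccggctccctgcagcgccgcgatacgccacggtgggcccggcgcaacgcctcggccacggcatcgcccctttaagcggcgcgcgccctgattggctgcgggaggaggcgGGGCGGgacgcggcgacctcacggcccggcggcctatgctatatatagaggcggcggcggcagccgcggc
ERBB2: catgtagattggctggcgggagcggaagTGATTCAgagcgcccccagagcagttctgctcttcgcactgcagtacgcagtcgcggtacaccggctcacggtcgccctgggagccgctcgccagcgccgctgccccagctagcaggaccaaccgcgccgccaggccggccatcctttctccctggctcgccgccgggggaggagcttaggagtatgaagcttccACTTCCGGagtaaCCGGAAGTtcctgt

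The windows of EREG, HBEGF and ERRFI1 held 0 matches to AP-1, CRE or ETS, and so did both windows of TGFA and the window of BTC, which did not pass the test. EGFR, which fell as well, has 2 start sites in the table: the first window likewise held 0 such matches, and the second held 2 AP-1 matches, at -232 and -136. EREG had a TATA box starting at -32 from the start site, a motif that 10.7% of all 35116 windows of this length hold. HBEGF had 5 GC boxes and ERRFI1 1, where 42.6% of windows have at least 1. The G and C content was 58% in EREG, 76.4% in HBEGF and 75.2% in ERRFI1. In ERBB2 (65.6%) ETS matches on opposite strands start at -27 and -14, beside an AP-1 match at -222, and the shares of windows with these motifs were 3.42% for ETS and 6.57% for AP-1, beside 1.65% for CRE. ERBB3, the other member that rose, had no window among those used, so ERBB2 is the only member that rose whose window was read. A match is a description of letters and no evidence of binding.

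WTAP array 6 stood apart from arrays 4 and 5 in several members. For 4 of the 6 changed members (ERBB2, ERBB3, EREG and HBEGF) it was the WTAP array nearest the mock mean. In any gene 1 of the 3 WTAP arrays is nearest, and the share of all genes with array 6 nearest was not computed. Leaving out WTAP array 4, 5 or 6 gave 1345, 1568 and 2245 changed genes among all genes. The distance of WTAP array 6 from the mock mean was 55.7% of the mean distance of WTAP arrays 4 and 5 for ERBB2, 20.1% for ERBB3, 59.3% for EREG and 23.2% for HBEGF. EGFR (112%) and ERRFI1 (105%) did not share this. For all 6 changed members the difference between arrays of the same number had 1 sign in 3 of 3 numbers. This follows from groups that do not overlap and adds nothing to it.

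**Figure D3:**
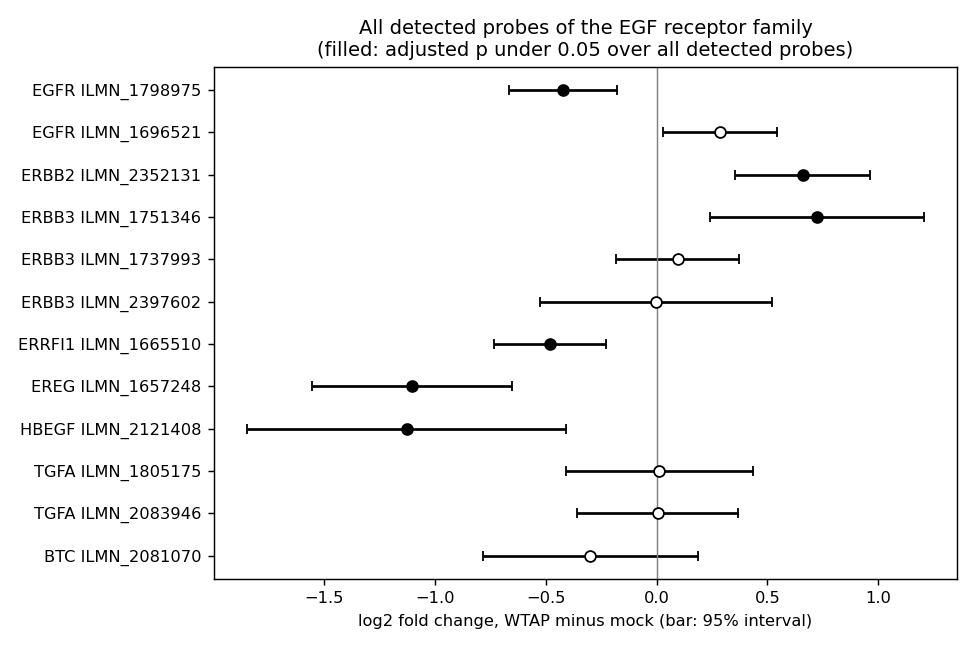
Log2 fold change (horizontal axis, WTAP minus mock, bar: 95% interval) of the 12 detected probes of the family, by gene and probe; filled symbols passed an adjusted p of 0.05 over all 15830 detected probes. The 6 filled probes are 1 each of EGFR, ERBB2, ERBB3, ERRFI1, EREG and HBEGF.

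Each member was set beside the 25 nearest tested genes on either side. The neighbours of EREG on chromosome 4 had a median log2 fold change of -0.33. Of these, 15 of 50 were lower and 2 higher, where 9.91% of all genes were lower and 10.5% higher. EREG fell further than 47 of its 50 neighbours, and after subtraction of their median it still fell by 0.77 (limma adjusted p = 0.0357). BTC lies in the same ligand cluster, where its -0.30 was close to the median of its neighbours (-0.35), and subtraction left 0.05 (limma adjusted p = 0.908).

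On chromosome 17 the neighbours of ERBB2 had a median of 0.17. Of these 50 genes 8 were higher and 0 lower, where 10.5% of all genes were higher and 9.91% lower. ERBB2 minus the median of its neighbours was 0.49 (limma adjusted p = 0.0416). HBEGF on chromosome 5 and ERBB3 on chromosome 12 lay outside the changes of all 50 neighbours, with medians of 0.02 and -0.11. EGFR on chromosome 7 (median -0.08) fell further than 42 of its neighbours and ERRFI1 on chromosome 1 (median -0.0016) further than 45.

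**Figure D4:**
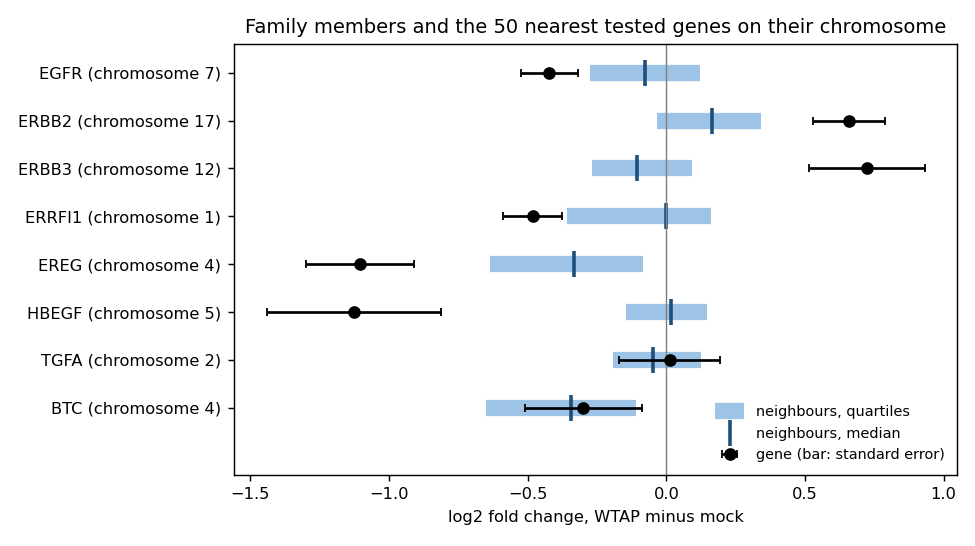
Log2 fold change (horizontal axis, WTAP minus mock) of each tested member (point, bar: standard error) beside the median and quartiles of its 50 nearest tested genes. BTC lies within the quartiles of its neighbours on chromosome 4, EREG below them, and HBEGF and ERBB3 far from neighbours centred near 0.

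Of 111 further genes of the pathway, 91 were tested, of which 15 rose and 13 fell (30.8% changed, against 20.4% of all genes). The balance of directions depended on the centring: 12 rose and 14 fell with median scaling, where 1009 of all genes rose and 1323 fell against 1218 and 1148, and 8 rose and 14 fell after subtraction of neighbouring genes. Their lists were drawn up with earlier results of these arrays known. Among genes listed here as induced by ERK, 0 of 20 rose and 9 fell (45.0%, against 9.91% lower among all genes). Of the 20, 19 had a log2 fold change below 0, and their median was -0.47, where that of all genes was 0.0030. The list includes ELK1 (-0.18, limma adjusted p = 0.317), for which induction by ERK was not checked. DUSP5, which inactivates nuclear ERK, fell by 1.81 (limma adjusted p = 0.00373). DUSP6, the cytosolic ERK phosphatase, fell by 1.20 (limma adjusted p = 0.00590), with a fall of 1.40 on its other probe. DUSP4, a nuclear phosphatase of ERK, fell by 1.01 (limma adjusted p = 0.0142). The median of the 20 genes, relative to the mock mean, was -0.47, -0.85 and -0.26 on WTAP arrays 4, 5 and 6. Array 5 was thus lowest and array 6 nearest the mock arrays, as for HBEGF. Without 1 array, 7 to 12 of these genes fell and 0 rose. After subtraction of neighbouring genes 11 fell.

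Of the other receptors and ligands of the family only NRG1 was tested. ERBB4, EGF and NRG2 were detected on 0 arrays, and NRG3 and NRG4 on 2 arrays each. NRG1, a neuregulin that binds ERBB3, fell by 1.08 on the tested probe (limma adjusted p = 0.000957), from a mean of 7.81 to 6.73. Its other detected probe had a log2 fold change of 0.08 (adjusted p = 0.787). That probe read 6.12 on mock and 6.20 on WTAP arrays, near the lowest detected values of the arrays (5.82 to 6.06). It could thus hardly show a fall, and the fall of NRG1 rests on 1 probe.

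Of 10 sheddases and ligand processing genes 3 rose and 0 fell (30.0% changed, against 20.4% of all genes). ADAM9 rose by 0.77, ADAM10, which cuts BTC and EGF precursors, by 0.54, and ADAM15 by 0.43 (limma adjusted p = 0.0139, 0.0215 and 0.0213). ADAM17, the main sheddase of TGFA and HBEGF, had a log2 fold change of 0.08 (adjusted p = 0.660). None of these 3 calls held throughout. ADAM9 and ADAM15 were lost after subtraction of neighbouring genes (limma adjusted p = 0.0790 and 0.267, the highest of 16 alternatives for each) and without WTAP array 4. ADAM15 was also lost with the mean of its probes and without mock array 4 or 6. ADAM10 missed the threshold when mock array 5, mock array 6 or WTAP array 5 was left out (limma adjusted p = 0.0749, 0.0586 and 0.0671).

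Of 17 adaptors and kinases of the relay 3 rose and 0 fell, and these 17.6% lay near the 20.4% of all genes that changed. SHC1, an adaptor of activated receptors, rose by 0.63, the ERK kinase MAP2K1 by 0.47, and SRC by 0.43 (limma adjusted p = 0.00700, 0.0164 and 0.0466). After subtraction of neighbouring genes 0 of these 17 passed, and without mock array 6 or WTAP array 5 only 1 did. The other SRC probe had a log2 fold change of -0.27 (adjusted p = 0.329). It was dim, at 6.48 on mock and 6.21 on WTAP arrays, near the lowest detected values of the arrays (5.82 to 6.06).

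Among 13 receptor inhibitors and ubiquitin ligases, 3 rose and 1 fell (30.8% changed, against 20.4% of all genes). LRIG1, a membrane protein that promotes degradation of EGF family receptors, rose by 1.05 (limma adjusted p = 0.00546), with a rise of 0.78 on its other probe. TNK2, a kinase that takes part in EGFR turnover, rose by 0.62 (limma adjusted p = 0.00793). Its other probe had -0.20 (adjusted p = 0.379), but it was dim, at 6.50 on mock and 6.30 on WTAP arrays. The lowest detected values of the arrays were 5.82 to 6.06. PTPRK, a receptor phosphatase that acts on EGFR, fell by 0.51 (limma adjusted p = 0.0119). CBL, the ubiquitin ligase of EGFR, had a log2 fold change of -0.12 (adjusted p = 0.588).

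Of 18 endocytosis and sorting genes 3 rose and 2 fell, and these 27.8% lay near the 20.4% of all genes that changed. STAM, a sorting protein of endosomes, fell from 8.80 ± 0.26 to 7.79 ± 0.26 (SD, n = 3 arrays each, limma adjusted p = 0.00694), but its neighbours on chromosome 10 had a median of -0.73 and the call was lost after their subtraction (limma adjusted p = 0.345, the highest of 16 alternatives, of which the lowest was 0.000593). GRB10, an adaptor that binds receptor kinases, fell by 0.86, and EPS15, an endocytic adaptor phosphorylated by EGFR, rose by 0.64. The counts were 1 higher and 2 lower with median scaling, and without mock array 5, WTAP array 4 or WTAP array 5. They were 1 and 1 after subtraction of neighbouring genes.

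Of 12 membrane partners 3 rose and 0 fell, and these 25.0% lay near the 20.4% of all genes that changed. MUC1, a membrane mucin that binds EGFR and is also among the epithelial markers, rose by 1.75, the receptor kinase EPHA2 by 0.71, and ERBIN, which binds ERBB2, by 0.51 (limma adjusted p = 0.00544, 0.00439 and 0.00941). MET, a receptor kinase that can act beside EGFR, had a log2 fold change of -0.13 (adjusted p = 0.515).

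**Figure D5:**
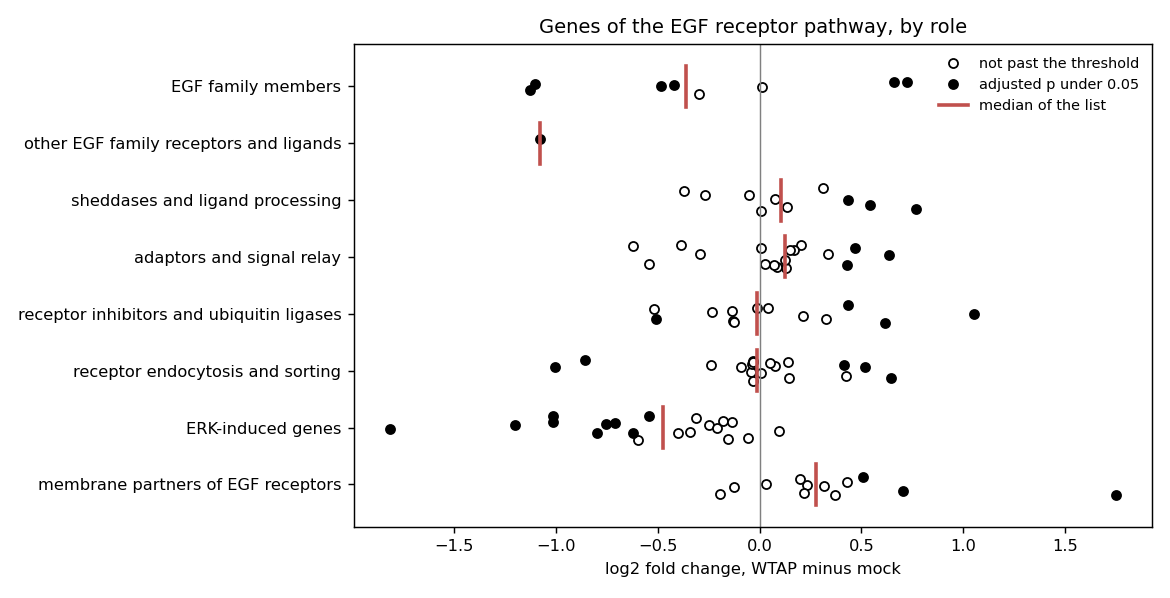
Log2 fold change (horizontal axis, WTAP minus mock) of the tested genes of each list (rows); filled points passed an adjusted p of 0.05 over all genes, and the vertical bar is the median of the list. The ERK-induced genes lie mostly below 0, with a median of -0.47, and membrane partners have a median of 0.28.

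The 3 tested genes whose values followed those of EREG most closely over the 6 arrays were RBM45 (Pearson r 0.997), SERPINB8 (0.997) and NOC3L (0.994), as a description over 6 arrays. With so few arrays 190 genes had an r above 0.95.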

How the data were processed

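Bead arrays of 3 mock and 3 WTAP samples were analysed. The deposited non-normalized table gives each probe's intensity, on a linear scale. Per the file headers it pairs every intensity with a detection p-value, which sets the signal against negative controls. The submitters' processing notes name BeadStudio 3.3. Whether background was subtracted beforehand is not stated. A second deposited table holds intensity values processed by the authors, whose 6 columns share their quantiles, and served as an alternative.

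Of 29377 probes, 92 that the processed table lacks were used in normalization but not tested. Of the other 29285, 27988 had 1 gene symbol, 0 had several and 1297 had none. In the whole platform annotation, 27819 entries were matched by gene identifier to RefSeq (GRCh38.p14) and took its symbol, whether or not it differed. RefSeq also gave gene order and promoters. With limma 3.58.1 in R 4.3.3, neqc (normexp, offset 16, quantile normalization, log2) was applied. Probes detected (p under 0.05) on at least 3 arrays were kept, 15830 in all, which keeps out genes too dim in both groups. The brightest probe of a gene was tested with lmFit and eBayes, with Benjamini-Hochberg adjustment over 11586 genes at 0.05. Further probes came from the same fit over all detected probes. The scripts were tested on simulated data.

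The text names all members, up to 3 changed genes of each pathway list with the largest changes, and the 3 genes most like the member with the smallest adjusted p. ADAM17, CBL and MET, and the probe pairs of EGFR and ERBB3, were picked after their values were seen, as were the motifs and the 4 promoters printed. Members and lists were chosen with earlier results of these data known. Deviations from the group means correlated across genes at 0.121, 0.206 and 0.227 for arrays of the same number. For arrays of other numbers the values were -0.195 to 0.018. Deviations cancel within a group, so positive values for the same number push the others down. The main fit did not pair the arrays. Among the fits, only the alternative with the array number as a block paired them by these numbers, which come from the titles. The number of arrays limits the precision. Alternatives were median scaling, no background correction, an offset of 50, the processed table, no filter, detection on all 6 arrays, a trended and robust variance, the mean of the probes of a gene, the array number as a block, subtraction of the median change of the 25 nearest genes on each side, and leaving out each array.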

Additional observations from a re-analysis of the deposited data

How the results depend on the processing

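The count of changed members was 6 under median scaling, no background correction, an offset of 50, the authors' processed table, detection on all 6 arrays and the replicate block. It was 5 with a trended and robust variance (without HBEGF) and after subtraction of neighbouring genes (without EGFR). It was 4 with no filter and with the mean of the probes of a gene. Without 1 array it ranged from 2 (without mock array 4 or WTAP array 5) to 6 (without WTAP array 6), and the count of all changed genes ranged from 1345 to 2245 against 2366. With fewer arrays, fewer residual degrees of freedom remain, and the cause of each lost call was not tested. Every changed member kept its direction under each of the 16 alternatives. In part this was fixed beforehand. The fold changes of these members stay the same with no filter, detection on all 6 arrays, the trended and robust variance and the replicate block. Leaving out 1 array can hardly reverse groups that do not overlap. BTC changed sign after subtraction of neighbouring genes and TGFA under 4 alternatives, and neither passed under any. The replicate block gave 2584 changed genes and 30 of the pathway genes, against 28, and changed no member's call. Median scaling moved the median of all genes to -0.032. EPGN and the 4 other undetected probes have signals too near the negative controls for any fold change.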
